A study of Mus musculus with 9 samples.

Results

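The 8 genes described here, Adprm, Pepd, Capn5, Prxl2b, Nkiras1, Dennd4a, Sowaha and Tcp11l2, are little-studied in red cell precursors and were picked from these same arrays for a large shift in Th3/Th3 erythroblasts or for a Th3/+ level off the midpoint between Th3/Th3 and wild type. The members are all probe sets whose only annotated symbol is one of these names, 16 of 28939 once control probe sets were left out (8 of 19938 genes). All 16 passed the filter on low values that left 17742 probe sets. Of the 8 genes, 7 have 1 probe set and Dennd4a has 9. No threshold for the choice was given, and because the differences between genotypes chose the genes, their own differences are given as a description with no p-value. Counts of their probe sets past the threshold of the fit over all probe sets stand beside the same share over all of them, and nothing is read from these counts.

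In the Th3 allele both adult beta-globin genes are deleted, which gives mice a beta-thalassemia. The groups were Th3/Th3 embryos (no intact adult beta-globin locus), Th3/+ embryos (1 intact locus) and wild type embryos, 3 samples and 3 arrays each, all at E14.5, in mid-gestation, and all from matings of Th3/+ parents. Every group shared a 129SV origin backcrossed for 9 generations to C57BL/6. Erythroblasts were sorted from fetal liver as large cells (high forward scatter) that carried CD71 (transferrin receptor) and the erythroid surface antigen Ter119. The labels call the samples of each group biological replicates. They do not say whether a sample was 1 embryo or a pool, so the spread between samples may not be that between embryos and may be technical in part.

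As background, maturing erythroblasts condense their nucleus, clear organelles and recycle protein while they fill with hemoglobin, and beta-thalassemia leaves alpha globin without its partner chain. Adprm splits ADP-ribose and CDP-alcohols, Pepd (prolidase) cleaves dipeptides that end in proline or hydroxyproline, Capn5 is a calcium-dependent protease of the calpain family, and Prxl2b reduces prostaglandin H and its ethanolamides to F-type products. Nkiras1 is a Ras-like protein that binds inhibitors of NF-kappa-B, and Dennd4a is a DENN-domain exchange factor that activates the vesicle traffic GTPase Rab10. Sowaha, an ankyrin repeat protein, and Tcp11l2, a relative of a testis protein, have no settled role in mouse erythroid cells.

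The array medians lay between 4.97 and 5.05 on the log2 scale. Scores on the first principal component (47.4% of the variance) were 32.6 to 36.6 for Th3/Th3 arrays and -23.8 to -9.19 for the other arrays. On the second, which held 16.7%, Th3/Th3 replicate 1 (25.5) and Th3/+ replicate 1 (20.5) stood apart from the other 7 arrays (-14.9 to 7.71). The labelled cell type was checked against 10 erythroblast markers: 9 had a probe set of their own and none was below the low-value line on any array, while 7 of the 9 fell in Th3/Th3 against wild type (limma, adjusted p under 0.05). Their summed linear signal was 15485 to 19556 in Th3/Th3, 28692 to 30573 in Th3/+ and 28997 to 32908 in wild type. In such bulk samples, fewer cells of a type and less RNA per cell cannot be told apart. Macrophage markers had 2 of 9 filtered genes lower in Th3/Th3 and 0 higher, with summed signals of 334 to 371 in Th3/Th3, 401 to 566 in Th3/+ and 412 to 538 in wild type, and of 12 listed genes 6 lay above the low-value line on every array (such as C1qb and Cd68), 4 lay below it on some arrays and 2, Mrc1 and Cd163, on all 9. Megakaryocyte markers had 0 of 5 called, with sums of 585 to 694 in Th3/Th3, 822 to 1033 in Th3/+ and 764 to 1077 in wild type. Hepatoblast, granulocyte and mast cell, lymphoid and endothelial lists had 0 genes called, which concerns differences between genotypes and not absence of signal. Above the low-value line on every array were 8 of 9 hepatoblast, 5 of 9 granulocyte and mast cell, 0 of 7 lymphoid and 4 of 8 endothelial genes. Hepatoblast sums were 707 to 1029 in Th3/Th3, 833 to 1360 in Th3/+ and 773 to 1041 in wild type. The part of these marker shifts in the values of the 8 genes was not tested.

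Promoter sequences are shown for the gene of higher Th3/Th3 signal that has a promoter entry (Adprm), for the gene with the largest Th3/Th3 difference (Pepd), and for the pair of genes with all Th3/+ arrays above and all Th3/Th3 arrays below the wild type arrays (Tcp11l2 and Prxl2b). They are the 250 bases before the annotated start, 5′ to 3′ on the gene's strand, from RefSeq on GRCm38.p6. Capitals mark letters that match any of 6 motifs on either strand: GATA factors (the letters AGATAA and, as a second form, TGATAA), antioxidant response (TGACNNNGC), heat shock (GAANNTTC and, as a second form, TTCNNGAA), C/EBP-ATF (TGATGNAA), KLF (CCNCNCCC) and CCAAT. Of the 8 genes, 5 had an entry in the promoter table, and Capn5, Nkiras1 and Sowaha are named only.
Adprm, chr11:67052619-67052868 (- strand): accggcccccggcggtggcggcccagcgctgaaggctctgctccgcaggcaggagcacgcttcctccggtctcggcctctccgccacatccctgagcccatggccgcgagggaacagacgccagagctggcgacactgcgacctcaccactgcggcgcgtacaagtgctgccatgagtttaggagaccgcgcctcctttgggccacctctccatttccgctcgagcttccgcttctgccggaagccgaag
Pepd, chr7:34912157-34912406 (+ strand): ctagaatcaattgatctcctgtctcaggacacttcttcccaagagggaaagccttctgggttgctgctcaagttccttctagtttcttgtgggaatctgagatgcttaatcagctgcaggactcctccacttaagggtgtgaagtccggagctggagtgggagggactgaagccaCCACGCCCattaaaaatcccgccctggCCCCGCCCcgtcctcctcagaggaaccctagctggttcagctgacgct
Tcp11l2, chr10:84576697-84576946 (+ strand): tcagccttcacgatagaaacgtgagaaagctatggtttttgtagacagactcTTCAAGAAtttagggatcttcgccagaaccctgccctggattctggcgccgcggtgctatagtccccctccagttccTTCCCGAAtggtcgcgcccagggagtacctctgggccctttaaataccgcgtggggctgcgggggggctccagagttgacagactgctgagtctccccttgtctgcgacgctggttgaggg
Prxl2b, chr4:154899044-154899293 (- strand): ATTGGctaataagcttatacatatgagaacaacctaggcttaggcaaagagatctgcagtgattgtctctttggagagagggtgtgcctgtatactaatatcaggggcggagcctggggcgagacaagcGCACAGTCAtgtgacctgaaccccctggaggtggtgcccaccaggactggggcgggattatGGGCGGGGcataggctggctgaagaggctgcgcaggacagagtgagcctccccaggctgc

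The Tcp11l2 window held 2 heat shock matches, which begin 198 and 121 bases before the start and which 12.8% of 32851 promoter windows of the same length hold at least once. The Prxl2b window held 1 antioxidant response match (10.2% of windows), 1 KLF match (45.9%) and 1 CCAAT match (33.8%). The Pepd window held 2 KLF matches. The Dennd4a window held 1 GATA match (16.6% of windows) and 1 CCAAT match, and the Adprm window held none of the 6 motifs. No window held the C/EBP-ATF letters (3.45% of windows). These are matches of letters and not binding sites.

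In Th3/Th3 cells Adprm and Nkiras1 were higher than in wild type, and the other 6 genes were lower. All 16 probe sets kept the 3 Th3/Th3 arrays apart from the 3 wild type arrays, as 27.5% of all tested probe sets did. By limma, 15 of the 16 had an adjusted p under 0.05, against 12.3% of all tested (7.31% higher and 4.98% lower), and the exception was Prxl2b. Th3/Th3 arrays also lay apart from Th3/+ arrays on all 16 (22.8% of all tested), and 16 had an adjusted p under 0.05 (7.27% of all tested).

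**Figure D1:**
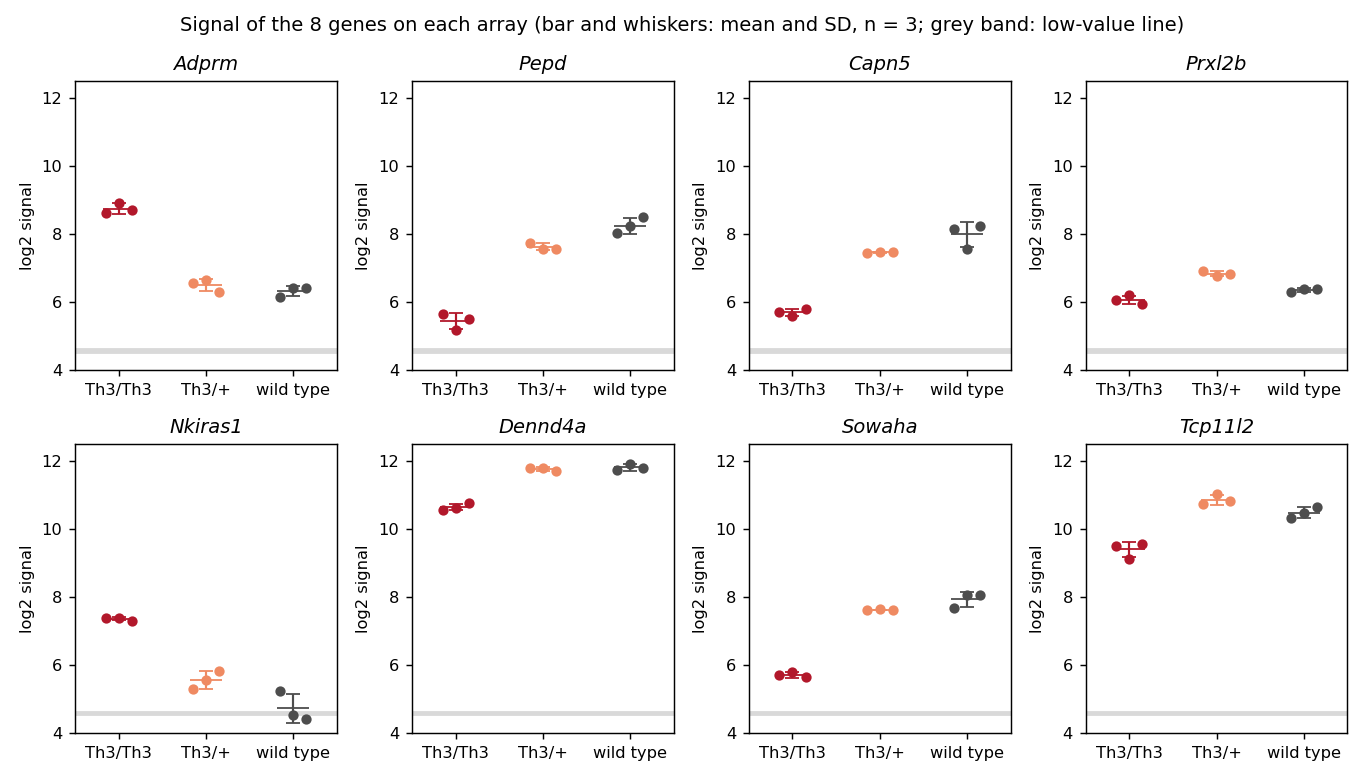
Log2 signal of the 8 genes on each array, in panels, for Th3/Th3, Th3/+ and wild type; points are arrays, the bar and whiskers are the mean and SD (n = 3), and the grey band is the range over arrays of the 40th percentile below which values were treated as low. Dennd4a is shown by its brightest probe set. Th3/Th3 arrays lie above the others for Adprm and Nkiras1 and below them for the other 6 genes.

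Among the enzymes, Adprm had log2 signals of 8.61, 8.92 and 8.71 in Th3/Th3, 6.56, 6.66 and 6.30 in Th3/+, and 6.14, 6.42 and 6.42 in wild type. The Th3/Th3 arrays stood alone, and the Th3/+ and wild type arrays overlapped. The Th3/Th3 level was 5.36-fold that of wild type (log2 difference 2.42, SE 0.14) and 4.73-fold that of Th3/+ (2.24, SE 0.14), and the Th3/+ level differed from wild type by 0.18 (SE 0.14). The Th3/+ mean lay below the midpoint of Th3/Th3 and wild type (-1.03, SE 0.12), and 2 of the 17742 probe sets lay further below theirs.

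Pepd had 5.66, 5.17 and 5.50 in Th3/Th3, 7.74, 7.56 and 7.56 in Th3/+, and 8.03, 8.23 and 8.50 in wild type. The 3 genotypes did not overlap and were ordered by the number of Th3 alleles. Prolidase signal in Th3/Th3 was 6.97-fold lower than in wild type (log2 difference -2.80, SE 0.16), and 5 of the 17742 probe sets had a larger difference in that direction. The Th3/+ mean lay 0.63 below wild type (difference -0.63, SE 0.16), or 22.3% of the Th3/Th3 shift.

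Capn5 had 5.71, 5.59 and 5.80 in Th3/Th3, 7.46, 7.46 and 7.47 in Th3/+, and 8.16, 7.57 and 8.24 in wild type. Again the genotypes did not overlap, but wild type replicate 2 lay only 0.11 above the highest Th3/+ array. The Th3/Th3 signal was 4.90-fold lower than in wild type (log2 difference -2.29, SE 0.17), and the Th3/+ difference was -0.53 (SE 0.17), or 23.2% of it.

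Prxl2b had 6.05, 6.20 and 5.95 in Th3/Th3, 6.90, 6.77 and 6.84 in Th3/+, and 6.30, 6.40 and 6.38 in wild type. Th3/+ arrays were the highest and Th3/Th3 arrays the lowest, with wild type between them. The Th3/+ mean was 1.39-fold that of wild type (log2 difference 0.48, SE 0.10), the Th3/Th3 difference from wild type was smaller (-0.29, SE 0.10), and Th3/Th3 lay 0.77 below Th3/+ (difference -0.77, SE 0.10). The closest Th3/Th3 and wild type arrays were 0.10 apart.

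Of the signalling and traffic genes, Nkiras1 had 7.37, 7.39 and 7.30 in Th3/Th3, 5.29, 5.56 and 5.83 in Th3/+, and 5.22, 4.52 and 4.41 in wild type. The genotypes did not overlap, though wild type replicate 1 came within 0.07 of the lowest Th3/+ array. In wild type, 2 of the 3 arrays lay below the low-value line, so the 6.22-fold higher Th3/Th3 signal (log2 difference 2.64, SE 0.21) is set against a level near background. The Th3/+ mean was 0.84 above wild type (SE 0.21), a difference measured from the same level.

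Dennd4a was measured by 9 probe sets on the same arrays, which are parts of 1 gene and no replicates of a condition. Its brightest probe set had 10.55, 10.62 and 10.75 in Th3/Th3, 11.79, 11.78 and 11.70 in Th3/+, and 11.71, 11.91 and 11.79 in wild type. The Th3/+ and wild type arrays overlapped on all 9 probe sets, and the Th3/Th3 arrays lay below both on all 9. The Th3/Th3 difference from wild type ran from -2.09 to -1.16 over the probe sets, with a median of -1.57, and the Th3/+ difference from -0.05 to 0.29, with a median of 0.10. The 9 probe sets thus differed in size but not in direction for Th3/Th3.

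Replicate 1 was the lowest array on 6 of the 9 probe sets in Th3/Th3, on 7 in Th3/+ and on 9 in wild type. On 1 probe set (10586252) Th3/Th3 replicate 1 had 9.14 against 8.05 and 7.98 in the other Th3/Th3 arrays. Without Th3/Th3 replicate 1 and Th3/+ replicate 1, which stood apart on the second component, the difference of that probe set from Th3/+ was -2.01, against -1.53 with all arrays.

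**Figure D2:**
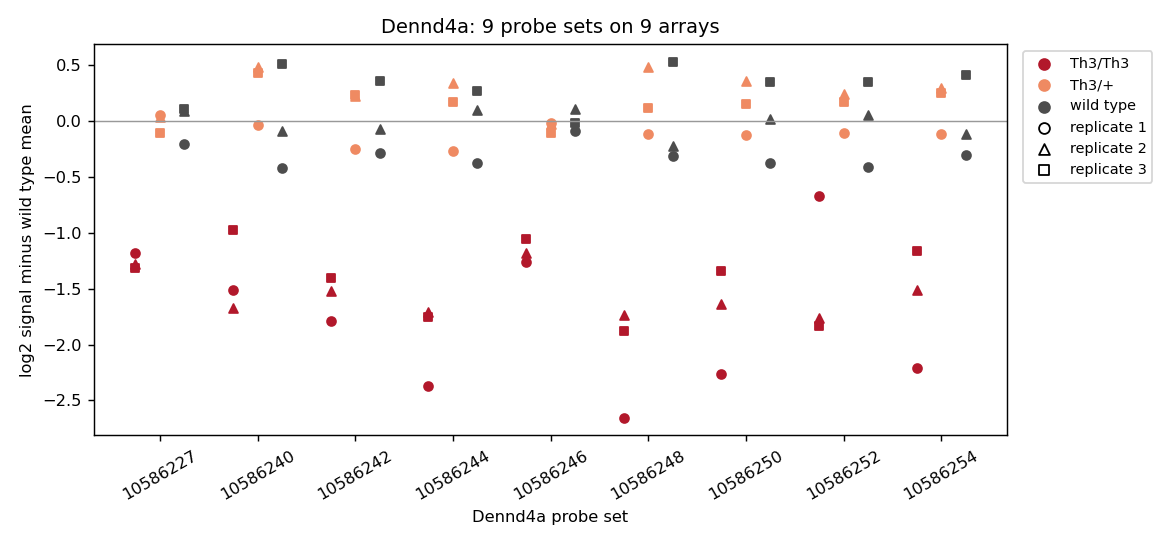
Log2 signal of each Dennd4a probe set minus its wild type mean, for the 9 arrays; colours mark the genotype and shapes the replicate number. All Th3/Th3 points lie below the Th3/+ and wild type points, and wild type replicate 1 is the lowest wild type array on all 9 probe sets.

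Of the genes with no settled role, Sowaha had 5.70, 5.80 and 5.63 in Th3/Th3, 7.62, 7.63 and 7.62 in Th3/+, and 7.67, 8.05 and 8.05 in wild type. The Th3/Th3 arrays stood far below the rest, and the highest Th3/+ array lay 0.04 below the lowest wild type array. Against wild type, Sowaha signal in Th3/Th3 was 4.64-fold lower (log2 difference -2.21, SE 0.13), and the Th3/+ difference was -0.30 (SE 0.13), 13.5% of that. On Sowaha and on Pepd, Th3/+ arrays held exactly equal values, as at least 2 of the 9 arrays did for 60.9% of the 28939 probe sets. The Th3/+ SD was 0.003 for Sowaha, 0.10 for Pepd and 0.004 for Capn5, whose arrays held no equal values. Whether a narrow Th3/+ spread comes with such ties was not tested.

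Tcp11l2 had 9.50, 9.12 and 9.55 in Th3/Th3, 10.73, 11.01 and 10.83 in Th3/+, and 10.32, 10.46 and 10.65 in wild type. As for Prxl2b, the Th3/+ arrays were the highest and the Th3/Th3 arrays the lowest. The Th3/Th3 signal was 2.12-fold lower than in wild type (log2 difference -1.09, SE 0.14) and 2.76-fold lower than in Th3/+ (-1.46, SE 0.14), while the Th3/+ mean was 1.30-fold that of wild type (0.38, SE 0.14). The arrangement of Tcp11l2 and Prxl2b, with all Th3/+ arrays above and all Th3/Th3 arrays below wild type, held for 29 of the 17742 probe sets (0.163%), and its mirror image for 34 (0.192%). These shares are given as background, since such heterozygotes were among the reasons for the choice.

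Against wild type, 0 of their 16 probe sets had an adjusted p under 0.05 by limma in Th3/+, and 0.0282% of all tested probe sets did. At an unadjusted p under 0.05 the count was 6 of the 16, beside 3.64% of all tested. The Th3/+ arrays did not overlap wild type on 6 of the 16, against 7.63% of all tested (4.4% higher and 3.22% lower): higher for Nkiras1, Tcp11l2 and Prxl2b and lower for Pepd, Capn5 and Sowaha. The Th3/Th3 and Th3/+ differences share the same 3 wild type arrays, so they are set side by side and not correlated. As a share of the Th3/Th3 shift, the Th3/+ difference was 7.44% for Adprm, 13.5% for Sowaha, 22.3% for Pepd and 23.2% for Capn5. No share is given for Nkiras1, whose wild type level was near background. For Dennd4a it lay between -21.2% and 4.11%, and for Tcp11l2 and Prxl2b it was -34.9% and -165%, that is, on the other side of wild type. The Prxl2b share divides by a small Th3/Th3 difference (-0.29, SE 0.10), so its size is uncertain. Over the 2181 probe sets called in Th3/Th3 against wild type, Prxl2b not among them, the median share was 19.3% (quartiles 5.95% and 34.5%). Of these shares, 90.1% lay under the midpoint and 14.9% were negative.

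The Th3/+ level relative to the midpoint was itself a reason for choosing some of these genes, so the count past the threshold is no support for it. That count was 5 of the 16 probe sets by limma, beside 0.0789% of all tested. It was 0 in 8 of the 9 fits with 1 array left out and 3 without Th3/Th3 replicate 1. With all arrays it was 0 with no filter, 0 with no mean-variance trend, 1 with the replicate number as a block, 5 with quantile normalization and 6 with the 60th percentile filter. Without both arrays that stood apart it was 0.

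**Figure D3:**
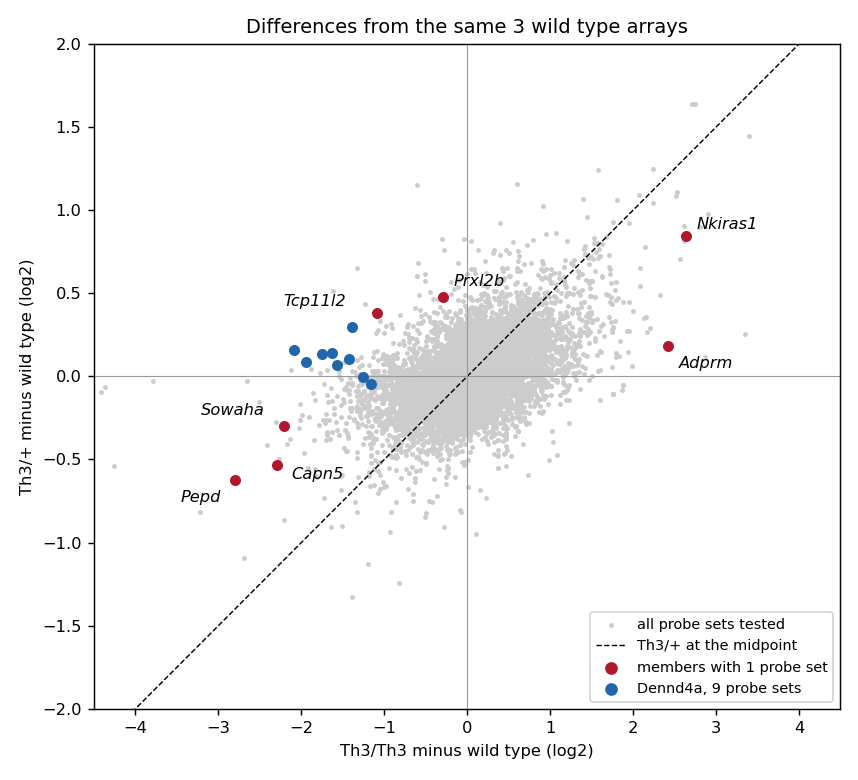
Log2 difference of Th3/+ from wild type (vertical) against that of Th3/Th3 from wild type (horizontal) for all 17742 probe sets tested (grey), the 7 members with 1 probe set (red) and the 9 Dennd4a probe sets (blue); the dashed line is where Th3/+ lies at the midpoint. Both axes use the same wild type arrays. Tcp11l2 and Prxl2b lie at the upper left, Pepd, Capn5 and Sowaha in the lower left, between the horizontal axis and the midpoint line.

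The genes most like each member were sought over the 9 arrays. The measure was the root mean square difference of log2 values, after centring each gene on its wild type mean. Each gene was taken by its brightest probe set, and predicted genes (Gm numbers, Rik names) were left out. Genes were ranked on these values, so like differences in Th3/Th3 and Th3/+ follow from the search and are no separate result. For Adprm the nearest genes were Pgrmc1 (0.24), Prdx1 (0.30) and Saraf (0.34), a heme-binding membrane protein, a peroxiredoxin and a regulator of calcium entry. For Nkiras1 they were the HSP70 cochaperone gene Bag3 (0.19), the HSP90 cochaperone gene Chordc1 (0.26) and the sulfiredoxin gene Srxn1 (0.32). Bag3 was 2.61 and 0.81 above wild type in Th3/Th3 and Th3/+, beside 2.64 and 0.84 for Nkiras1. The Nkiras1 values are measured from a wild type level near background.

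For Pepd the nearest were Capn5 (0.37), Cd82 (0.37) and Runx1t1 (0.41), and for Capn5 they were Sowaha (0.29), Pdzk1ip1 (0.32) and Cd82 (0.33). Pepd, Capn5 and Sowaha were chosen on differences between these same arrays, so their nearness to each other follows in part from the choice. Cd82 is a tetraspanin and Runx1t1 a corepressor. For Sowaha the nearest were Pik3r1 (0.16), the regulatory subunit gene of PI3 kinase, Dapk2 (0.26), a death-associated kinase, and Fam220a (0.26). Pik3r1 was lower by a log2 difference of -2.01 in Th3/Th3 and -0.26 in Th3/+, beside -2.21 and -0.30 for Sowaha.

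For Dennd4a, by its brightest probe set, the nearest were Wdr26 (0.09), Tfrc (0.10), which encodes CD71, and D5Ertd579e (0.10). Tfrc was -1.12 from wild type in Th3/Th3 and -0.10 in Th3/+, beside -1.16 and -0.05 for that Dennd4a probe set. Among the 9 Dennd4a probe sets it had the smallest Th3/Th3 difference (median -1.57, largest -2.09). Likeness was not sought for the others. The cells had been sorted on CD71 protein. For Tcp11l2 the nearest were Specc1 (0.10), Ube2o (0.13), a ubiquitin-conjugating enzyme of late erythroid cells, and Tmem131l (0.16), all with a Th3/+ mean above and a Th3/Th3 mean below wild type. Ube2o differed by -1.004 in Th3/Th3 and 0.26 in Th3/+. For Prxl2b the nearest were Rab19 (0.14), Mb (0.19) and Chd2 (0.19).

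Relatives and pathway partners of the 8 genes gave 108 listed genes besides the members, of which 97 had a probe set of their own and 77 passed the filter. In Th3/Th3 against wild type 6 of the 77 rose and 6 fell by limma (adjusted p under 0.05), beside 7.71% higher and 5.37% lower of all 12898 genes tested with 1 probe set each, and the median log2 difference was 0.06 over the 77 and 0.00 over all genes. Without Th3/Th3 replicate 3, and without wild type replicate 2, the count was 7, of which 1 rose and 6 fell. In Th3/Th3 against Th3/+ 4 of the 77 rose and 5 fell, beside 580 higher and 475 lower of the 12898 genes. In Th3/+ against wild type 0 of the 77 were called, beside 0.0155% higher and 0% lower of all genes. Of the 77, 4 had an unadjusted p under 0.05 in Th3/+ against wild type, beside 3.47% of all genes.

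Of 13 DENN-domain genes that passed the filter, 2 fell and 2 rose (list median -0.02). Dennd1a, whose product activates Rab35, had 6.16, 6.70 and 6.96 in Th3/Th3, 7.75, 7.87 and 7.78 in Th3/+, and 8.10, 7.96 and 8.39 in wild type. The genotypes did not overlap, and Dennd1a fell 2.92-fold in Th3/Th3 (log2 difference -1.54, SE 0.20, adjusted p = 0.00151). Dennd2c had 7.53, 7.45 and 7.70 in Th3/Th3, 8.68, 8.77 and 8.54 in Th3/+, and 8.29, 8.39 and 8.70 in wild type, where Th3/+ and wild type overlapped, and fell 1.87-fold (-0.90, SE 0.14, adjusted p = 0.00403). Dennd5a rose by 0.62 (SE 0.16, adjusted p = 0.0304) and Avl9 by 0.88 (SE 0.22, adjusted p = 0.0316), and leaving out 1 array ended the call in 4 of 9 and 6 of 9 cases (adjusted p up to 0.103 and 0.112). The closest relatives of Dennd4a did not pass the test: Dennd4b differed by -0.01 (SE 0.09, adjusted p = 0.969) and Dennd4c by -0.18 (SE 0.13, adjusted p = 0.438).

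Of 7 calpain system genes that passed the filter, 2 fell and 1 rose (list median 0.02). Cast, which encodes the calpain inhibitor calpastatin, had 7.95, 8.58 and 8.50 in Th3/Th3, 9.17, 9.55 and 9.33 in Th3/+, and 9.32, 9.56 and 9.33 in wild type, with Th3/Th3 alone below the rest. Cast fell 2.08-fold (log2 difference -1.06, SE 0.18, adjusted p = 0.00597). Capn1, the catalytic subunit of mu-calpain, fell 1.63-fold (-0.70, SE 0.15, adjusted p = 0.0127, and 0.0522 without wild type replicate 1). Capn10 rose by 0.53 (SE 0.14, adjusted p = 0.0341), a call lost in 5 of the 9 fits with 1 array left out (adjusted p up to 0.12). Capns1, the shared small subunit, differed by 0.14 (SE 0.19, adjusted p = 0.710).

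Of 13 NF-kappa-B factors and inhibitors that passed the filter, 2 rose and 1 fell (list median 0.07). Ikbkg, the scaffold subunit of the I-kappa-B kinase, had 6.46, 6.64 and 6.73 in Th3/Th3, 7.84, 7.44 and 7.39 in Th3/+, and 7.41, 7.52 and 7.78 in wild type. Th3/Th3 lay below both other groups, which overlapped, and Ikbkg fell 1.95-fold (log2 difference -0.96, SE 0.16, adjusted p = 0.00477). Rela, the p65 subunit, rose by 0.67 (SE 0.16, adjusted p = 0.0289), and Nfkbib, an inhibitor that NKIRAS proteins bind, by 0.53 (SE 0.14, adjusted p = 0.0382). With quantile normalization the calls of Rela and Nfkbib were lost (adjusted p = 0.0704 and 0.116), and leaving out 1 array ended them in 4 of 9 and 6 of 9 cases (adjusted p up to 0.102 and 0.126). Nkiras2, the paralog of Nkiras1, differed by 0.29 (SE 0.10, adjusted p = 0.0989).

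Of 14 genes of the PRXL2 family and prostaglandin enzymes that passed the filter, 1 rose and 1 fell (list median 0.06). Ptgr1, which reduces reactive aldehydes and prostaglandins, had 10.69, 11.71 and 11.40 in Th3/Th3, 8.12, 7.998 and 8.40 in Th3/+, and 7.76, 7.58 and 8.40 in wild type. Th3/Th3 lay far above the rest (log2 difference 3.35, SE 0.28, adjusted p = 0.000208). Tbxas1, thromboxane synthase, had 5.37, 4.80 and 5.17 in Th3/Th3, 6.21, 5.99 and 6.41 in Th3/+, and 5.91, 5.91 and 6.43 in wild type, and fell 1.96-fold (-0.97, SE 0.19, adjusted p = 0.00989). The relatives of Prxl2b did not pass the test in Th3/Th3 against wild type: Prxl2a differed by 0.21 (SE 0.15, adjusted p = 0.420) and Prxl2c by 0.71 (SE 0.21, adjusted p = 0.0566). In Th3/Th3 against Th3/+, Prxl2c was higher by 0.92 (limma, adjusted p = 0.0288) and Prxl2a differed by -0.19 (adjusted p = 0.534).

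In the remaining lists no gene passed the test in Th3/Th3 against wild type. The unadjusted counts given for them stand beside 26.2% of all genes with an unadjusted p under 0.05. Of 12 genes of ADP-ribose hydrolysis and transfer, 0 were called (2 at an unadjusted p under 0.05; list median 0.12), and the smallest p-values belonged to Macrod2 (0.45, SE 0.13, adjusted p = 0.0570) and Nudt5, another ADP-ribose hydrolase (0.45, SE 0.13, adjusted p = 0.0614). Of 13 proline peptidases and enzymes of proline metabolism, 0 were called (6 at an unadjusted p under 0.05; list median 0.29), led by Dpp8 (-0.62, SE 0.18, adjusted p = 0.0554) and Oat, ornithine aminotransferase (0.67, SE 0.20, adjusted p = 0.0571). This list median lay on the opposite side of 0 from the value of Pepd (-2.80). Of 5 other SOWAH and TCP11 family genes, 0 were called and 0 had an unadjusted p under 0.05 (list median -0.01), with Sowahb at 0.22 (SE 0.10, adjusted p = 0.221) and Sowahd at -0.17 (SE 0.08, adjusted p = 0.227). The wild type means of these 5 genes, 4.67 to 5.14, lay near the array medians (4.97 to 5.05), so a fall could hardly be seen in them.

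**Figure D4:**
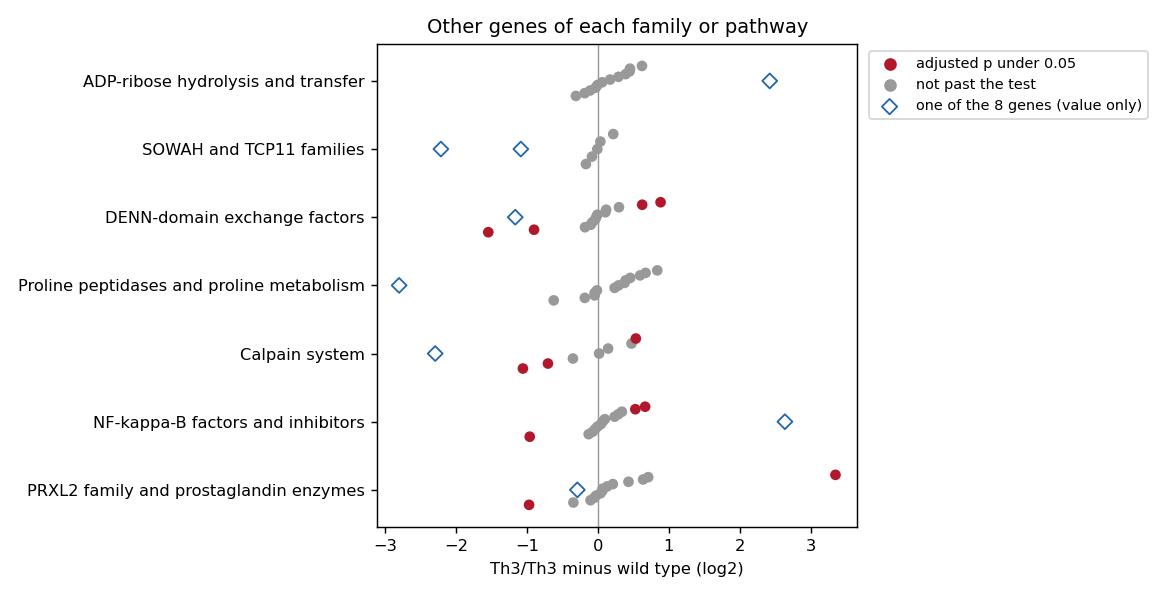
Log2 difference of Th3/Th3 from wild type for each listed gene that passed the filter, by list; red points have an adjusted p under 0.05 (limma), grey points do not, and open diamonds are the 8 chosen genes, given as values only (Dennd4a by its brightest probe set). Apart from Ptgr1 at 3.35, the other listed genes lie between -1.54 and 0.88.

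The chromosomal neighbours of the 8 genes were examined because Pepd and Capn5 are on chromosome 7, which carries the beta-globin locus. Over the 3 measured genes on either side of each member, 48 in all, 6 rose and 3 fell in Th3/Th3 (limma, adjusted p under 0.05), beside the 7.71% and 5.37% of all genes. Without wild type replicate 1, and without wild type replicate 2, 5 of the 48 were called. The neighbours of Capn5 had log2 differences between -0.43 and 0.50, and 1 rose, the alkaline ceramidase gene Acer3 (0.50, SE 0.13, adjusted p = 0.0316), a call lost in 6 of 9 fits with 1 array left out (adjusted p up to 0.110). Those of Pepd lay between -0.25 and 0.74, and 1 rose, Cebpg, a bZIP transcription factor gene (0.74, SE 0.18, adjusted p = 0.0237, and up to 0.0761 with 1 array left out). None of these 12 neighbours passed the test as lower, and the lowest, a gene next to Capn5, was at -0.43 (SE 0.14, adjusted p = 0.0744). Several of the 12 had wild type means near the array medians (4.97 to 5.05), which left little room for a fall. Examples are 4.92 and 4.98 near Capn5 and 5.06 and 5.13 near Pepd. Whether the place of Pepd and Capn5 on chromosome 7 bears on their values was not tested.

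Prxl2b lies between genes with larger falls than its own difference. Mmel1, a membrane metallopeptidase gene, fell by 1.35 (difference -1.35, SE 0.14, adjusted p = 0.000456) and Tnfrsf14, a TNF receptor family gene, by 1.10 (difference -1.10, SE 0.20, adjusted p = 0.00697). In Th3/+ they differed from wild type by 0.02 and -0.03, where Prxl2b was at 0.48. Next to Sowaha, Septin8, a septin gene, fell by 0.92 (SE 0.16, adjusted p = 0.00555). Near Nkiras1, Rtraf, an RNA-binding factor gene, rose by 0.70 (SE 0.11, adjusted p = 0.00381), and near Tcp11l2, D10Wsu102e rose by 0.92 (SE 0.15, adjusted p = 0.00409). Beyond Dennd4a, Ints14, an Integrator subunit gene, rose by 0.57 (SE 0.16, adjusted p = 0.0480) and Hacd3, an enzyme of fatty acid elongation, by 0.96 (SE 0.26, adjusted p = 0.0443), calls lost in 8 of 9 and 7 of 9 fits with 1 array left out (adjusted p up to 0.152 and 0.135). The 6 neighbours of Adprm, between -0.16 and 0.11, did not pass the test. Their wild type means, 4.58 to 5.32, lay near the array medians (4.97 to 5.05), so a fall could hardly be seen in them.

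**Figure D5:**
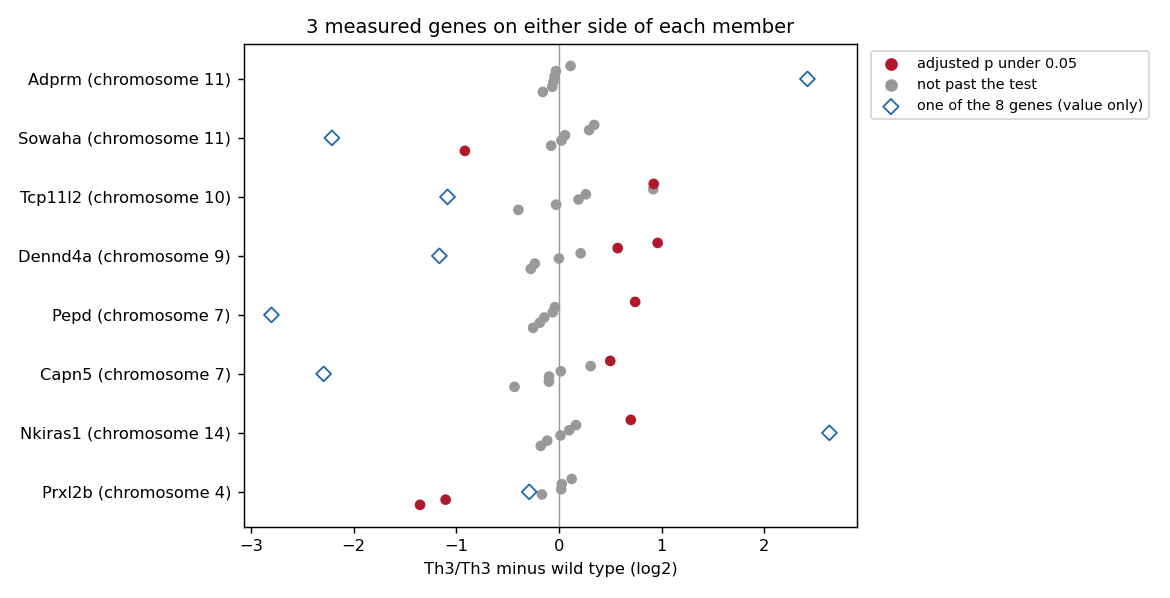
Log2 difference of Th3/Th3 from wild type for the 3 measured genes on either side of each member; red points have an adjusted p under 0.05 (limma), grey points do not, and open diamonds are the members themselves, given as values only. The neighbours of Pepd and Capn5 lie between -0.43 and 0.74, away from the members at -2.80 and -2.29. Several of these neighbours had wild type means near the array medians.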

How the data were processed

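RNA of sorted fetal liver erythroblasts, 35 ng per sample by the labels' protocols, was amplified, labelled with biotin and hybridised to whole-transcript oligonucleotide arrays, 1 per sample. The authors' deposited table has 1 value for each probe set on each array, and these are log2 values by their range. MAS5 is named in the submitters' processing notes, while the background correction and the summary method of the probes are unstated there. Medians of the 9 arrays were already alike, and no further normalization was applied. The precision is limited by the 3 arrays per genotype.

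Of 35556 probe sets, 6617 with identifiers below the first annotated one were taken as the control block and left out. Genes were named from the platform annotation, where 21789 probe sets have 1 symbol, 1621 several and 5529 none listed. Of the 21789, 21698 matched the mouse reference table (GRCm38.p6) by gene identifier, with 0 symbols changed. This table gave chromosomes and gene order only. Promoter sequences came from RefSeq on the same build.

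A probe set was kept where at least 3 arrays had it above the low-value line, the 40th percentile of that array (4.52 to 4.62). Genotype means were fitted with limma 3.58.1 in R 4.3.3 (lmFit, eBayes with a mean-variance trend) with Benjamini-Hochberg adjustment over all 17742 probe sets kept. Tests were two-sided. The procedure was tested on simulated data. Differences are of mean log2 values, with the moderated standard error. For lists and neighbours, the probe set with the highest mean stood for a gene.

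The 8 genes, the lists, the alternatives and the naming rule were chosen with earlier results of these data known. The rule names the members, up to 4 called genes per list or otherwise the 2 with the smallest p, and the called neighbours. It also names the 3 most alike genes per member, with predicted genes left out. Close paralogs and Capns1 were named outside it, after their values were seen.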

Additional observations from a re-analysis of the deposited data

How the results depend on the processing

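The Th3/Th3 difference from wild type of all 16 probe sets of the 8 genes kept its sign in each of 12 alternatives (quantile normalization, the replicate block, each array left out, and both arrays that stood apart left out), and so did the Th3/Th3 difference from Th3/+. The second of these moved by more than the spread for 1 Dennd4a probe set, to -2.01 without both arrays that stood apart. The Th3/+ difference from wild type kept its sign throughout for 9 of 16 probe sets, and the other 7 are Dennd4a probe sets. The number of probe sets called in Th3/Th3 against wild type was 2181 and ran from 1447 (without wild type replicate 2) to 2301 with 1 array left out. In Th3/Th3 against Th3/+ it was 1290 and ran from 592 (without Th3/+ replicate 2) to 1411, with 774 without Th3/+ replicate 3 and 858 without Th3/Th3 replicate 2. In Th3/+ against wild type it was 5, from 3 to 12 with 1 array left out, 10 with the 60th percentile filter and 3 without both arrays. Against the midpoint it was 14, from 1 to 30 with 1 array left out, 38 with the 60th percentile filter, 2 with no filter, 2 with no mean-variance trend and 1 without both arrays. For the 77 listed genes it was 12, from 7 (without Th3/Th3 replicate 3 or wild type replicate 2) to 17 with 1 array left out, 20 with the 60th percentile filter, which leaves 53 of them, and 19 without both arrays. The cause of these changes was not tested.

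The replicate number did not pair the samples by the check used, which asks for a correlation over 0.1 in every same-numbered pair: deviations from the group means correlated between -0.13 and 0.36 over the 9 same-numbered pairs, above 0.1 in 6 (all those of replicates 1 and 3), and between -0.35 and 0.25 over the 18 other pairs, above 0.1 in 4. Not every sample correlated best with its own number. With the replicate number as a block, 3 probe sets were called against the midpoint, of which 1 is a member (5 without the block), and the other counts stayed within 1.5 times. The count of member probe sets called in Th3/Th3 against wild type was 15 with the block as without it. Of 9 called neighbour genes, Hacd3 lost its call (adjusted p = 0.0512).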
